A study of Homo sapiens with 8 samples.

Results

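Transcripts of 10 lysine deacetylases were followed in Rh41 cells with and without knockdown of G9a: HDAC1, HDAC2, HDAC3, HDAC4, HDAC5, HDAC6, HDAC7, HDAC9, SIRT1 and SIRT6. They were taken by gene symbol from the 60234 genes of the deposited table, where each of the 10 symbols has 1 identifier. All 10 had a mean of at least 1 CPM (reads of a gene scaled to the library's total of reads assigned to genes) over the 8 libraries and were among the 15092 genes tested. Rh41 is an established human line of alveolar rhabdomyosarcoma, a tumour with features of skeletal muscle, and its labels give it as positive for the PAX3-FOXO1 fusion. The labels name 4 libraries as control, with no agent given for them, and 4 as siG9a, numbered 1 to 4 in each group and described as biological replicates. The sample labels write siG9a and the series title shG9a, so the kind of knockdown RNA is not settled by the labels, and the time after knockdown is not given in the sources used here. Both groups are thus 1 cell line, and the knockdown is the only factor that the labels vary.

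Lysine acetylation of histone tails accompanies active chromatin, and deacetylases take the acetyl groups off again. The zinc-dependent HDAC enzymes fall into class I (HDAC1, HDAC2 and HDAC3, nuclear catalytic subunits of corepressor complexes), class IIa (HDAC4, HDAC5, HDAC7 and HDAC9, which bind MEF2 transcription factors and move between nucleus and cytoplasm) and class IIb (HDAC6, a mainly cytoplasmic tubulin deacetylase). Sirtuins use NAD instead, and SIRT1 and SIRT6 are nuclear. In muscle lineage cells class IIa enzymes are known to hold MEF2 in check. G9a methylates lysine 9 of histone H3, a residue that can carry either a methyl or an acetyl group.

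Of the 10 members, 0 passed an adjusted p of 0.05 between siG9a and control. A limma fit without a block (the unblocked fit) and 1 with the replicate number as a block (the blocked fit) were made over all genes. In the unblocked fit 0 of the 10 were called and 0 had an unadjusted p under 0.05, where 0.0% of all 15092 genes were called and 12.5% had such an unadjusted p. The blocked fit called 0 members, against 11.4% of all genes (4.86% higher and 6.52% lower), and 1 member, HDAC3, had an unadjusted p under 0.05, against 25.5% of all genes. On the recovered reads with the block, edgeR called 0 members with 1 at an unadjusted p under 0.05, and DESeq2 called 0 with 0. The smallest adjusted p among the members was 0.469 in the unblocked and 0.112 in the blocked limma fit. The median log2 difference over the members was −0.15 (4 higher, 6 lower), beside 0.01 over all genes tested. The 4 higher include HDAC9, which had at most 6 reads in a library and was given no adjusted p by DESeq2. For all 10 members the 4 siG9a values overlapped the 4 control values, where 7.32% of all genes did not overlap.

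The data do set limits on the size of a difference. The 95% interval of the log2 difference lay within 2-fold in either direction for 6 of 10 members (unblocked fit) and for 9 of 10 (blocked fit), as it did for 34.2% and 51.3% of all genes. HDAC9 was the member outside these limits in both fits. A bulk library cannot tell fewer cells of a kind from less RNA per cell, and this holds for every value below.

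**Figure D1:**
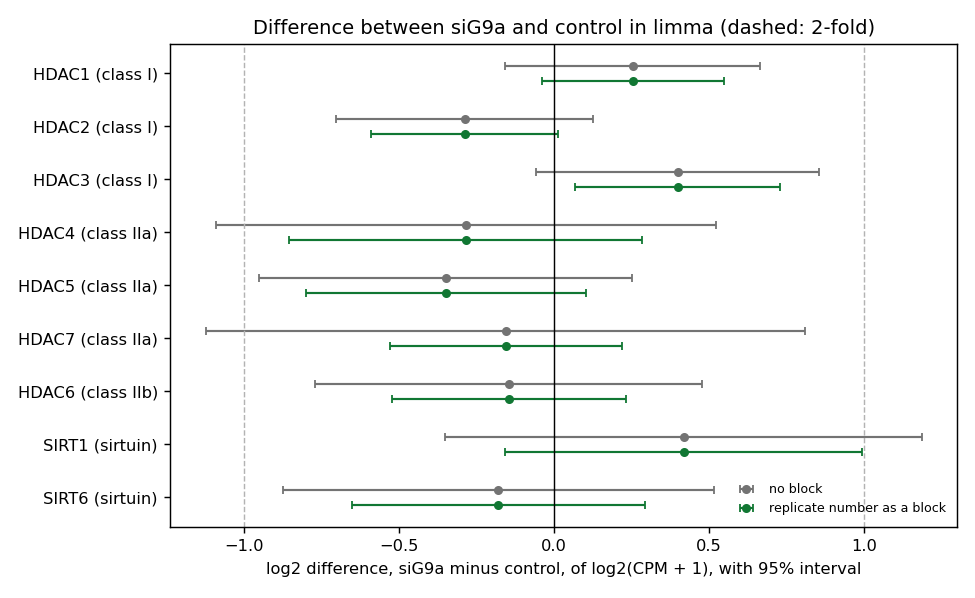
Log2 difference of log2(CPM + 1) between siG9a and control for 9 members (x axis), with 95% intervals from limma without a block (grey) and with the replicate number as a block (green). All grey intervals cross 0, and of the green intervals the one for HDAC3 (0.07 to 0.73) does not; HDAC9 is left out because 6 of its 8 values are at or under 3 reads.

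The libraries held 1458825 to 1938665 reads each, so HDAC4 rested on 11 to 34 reads a library and HDAC7 on 319 to 1426. EHMT2, the gene of G9a, has 7 identifiers, of which the 1 with the highest mean CPM was used. It measured 57.6, 68.1, 87.3 and 88.3 CPM in control replicates 1 to 4. In siG9a it measured 19.6, 35.1, 33.1 and 58.5 CPM, lower in each of the 4 pairs, with siG9a replicate 4 above control replicate 1. Its log2 difference was −1.10 (limma adjusted p 0.191 unblocked, 0.000472 blocked). Replicate 3 stood apart in both groups. MYOD1, which defines the muscle lineage, was at 95.3 CPM in control replicate 3 and 128 CPM in siG9a replicate 3 where the other 6 libraries lay between 608 and 864. The 8 muscle and rhabdomyosarcoma markers summed to 298 to 1906 CPM in control and 251 to 1372 CPM in siG9a, with replicate 3 the lowest library each time. In the blocked limma fit 5 of these 8 markers were called lower (DES, CDH15, CHRNA1, TFAP2B and FGFR4) and 0 higher. Of all genes, 6.52% were called lower and 4.86% higher. The median log2 difference over the 8 markers was −0.71, with MYOD1 at −0.03 and CHRND at 0.21. With the block, edgeR and DESeq2 also called 5 of the 8. The unblocked fit called 0. DES, the muscle intermediate filament gene, had a log2 difference of −1.77 (limma adjusted p 6.69e-06 blocked, 0.2996 unblocked). The mitochondrial share of reads was also higher in siG9a in 4 of 4 pairs, at 9.18%, 5.58%, 4.68% and 4.59% in control and 13.7%, 11.4%, 6.53% and 5.21% in siG9a. MYOG, a later muscle factor, lay between 1.14 and 11.7 CPM. The 4 neurofilament markers summed to 184 to 9604 CPM in control and 222 to 8933 CPM in siG9a, with replicate 3 the highest and replicate 1 the lowest each time. NEFM was at 155.6 CPM in control replicate 1 and 181.6 CPM in siG9a replicate 1. In replicates 2 and 4 of both groups it lay between 1562 and 2498 CPM, so replicate 1 also stood apart for this marker. The 7 fibroblast markers summed to 118 to 407 CPM in control and 51.9 to 320 CPM in siG9a, the 5 epithelial markers to 10.3 to 75.6 CPM and 23.5 to 43.96 CPM, and the 4 haematopoietic markers to at most 3.69 CPM and 6.28 CPM. Limma with the block called 1 of 4 tested fibroblast markers (COL1A1) and 1 of 4 tested epithelial markers (CDH1), both lower. The tested genes of these 2 lists had median log2 differences of −0.52 and 0.32. With the block, edgeR called 0 and 1 of them, and DESeq2 called 0 in either list.

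Promoter windows of the 3 class I members are printed because the within-library ratios described below are formed from these genes. The windows run from 250 bases before to 50 bases after the annotated start and come from RefSeq (GRCh38.p14), where 9 of the 10 members (all but HDAC5) have at least 1 window. Capitals mark the GC box GGGCGG, the core recognised by SP1-type zinc finger factors. It was searched on both strands with overlapping matches allowed, so 1 stretch of capitals can hold more than 1 match. HDAC1 lies at chr1:32291833-32292132 on the plus strand, HDAC2 at chr6:113971099-113971398 on the minus strand and HDAC3 at chr5:141636800-141637099 on the minus strand.
HDAC1: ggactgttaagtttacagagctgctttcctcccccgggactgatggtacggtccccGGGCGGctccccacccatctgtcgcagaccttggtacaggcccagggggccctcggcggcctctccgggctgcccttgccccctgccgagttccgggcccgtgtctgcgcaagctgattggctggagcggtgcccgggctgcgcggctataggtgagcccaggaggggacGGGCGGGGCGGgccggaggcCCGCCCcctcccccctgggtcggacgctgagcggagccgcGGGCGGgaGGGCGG
HDAC2: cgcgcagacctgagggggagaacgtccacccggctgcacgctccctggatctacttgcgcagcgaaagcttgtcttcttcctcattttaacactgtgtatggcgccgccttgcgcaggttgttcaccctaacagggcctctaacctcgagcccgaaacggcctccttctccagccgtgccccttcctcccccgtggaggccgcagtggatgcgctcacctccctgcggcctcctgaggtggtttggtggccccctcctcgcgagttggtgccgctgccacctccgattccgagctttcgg
HDAC3: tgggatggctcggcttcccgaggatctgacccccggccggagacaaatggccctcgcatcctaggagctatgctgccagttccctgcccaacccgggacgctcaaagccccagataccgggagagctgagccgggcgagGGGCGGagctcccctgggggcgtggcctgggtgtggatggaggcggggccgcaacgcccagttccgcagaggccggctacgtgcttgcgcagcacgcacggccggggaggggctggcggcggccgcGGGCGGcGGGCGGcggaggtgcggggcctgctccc
The window of HDAC1 holds 6 matches, that of HDAC3 holds 3 and that of HDAC2 holds 0. A match was found in 45.0% of the 35116 windows of 300 bases in the table. These are matches of letters and not measured binding sites.

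HDAC2 measured 232, 235, 235 and 237 CPM in control replicates 1 to 4. In siG9a it measured 166, 161, 240.4 and 212 CPM. The control libraries were nearly level, with a coefficient of variation of 0.984% where counting error alone gives about 5.06%, and the siG9a libraries spread below and slightly above them. On the log2 scale siG9a minus control was −0.29 (SE 0.19 unblocked, 0.15 blocked; limma adjusted p 0.576 and 0.218). In the blocked fit the 95% interval ran from a fold of 0.664 to 1.01. HDAC2 was lower in 3 of 4 pairs, the exception being replicate 3 at 102.3% of its control.

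HDAC1, the close paralogue that shares the NuRD, SIN3 and CoREST complexes with HDAC2, had a difference of the opposite sign. It measured 195, 208, 216 and 157 CPM in control and 226, 209, 273 and 215 CPM in siG9a. It was higher in 4 of 4 pairs, from 100.5% of control in replicate 2 to 137% in replicate 4, yet siG9a replicates 2 and 4 lay inside the control range. Its log2 difference was 0.25 (SE 0.19 unblocked, 0.14 blocked; limma adjusted p 0.633 and 0.275), and the blocked interval ran from a fold of 0.973 to 1.46.

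HDAC3, the catalytic subunit of the NCoR and SMRT complexes, showed the smallest p of the members. It measured 105, 91.8, 118 and 82.04 CPM in control and 107, 116, 158 and 145 CPM in siG9a. The siG9a libraries were at 102.3%, 126%, 134% and 177% of the control with the same number, but replicates 1 and 2 of siG9a lay within the control range. A log2 difference of 0.40 resulted (SE 0.21 unblocked, 0.16 blocked; limma adjusted p 0.469 and 0.112). Over the alternatives the adjusted p ran from 0.276 to 0.729 unblocked and from 0.0820 to 0.335 blocked, and none passed the threshold. Higher in 4 of 4 pairs were 3 of the 10 members (HDAC1, HDAC3 and SIRT1), where 14.9% of all genes were. Lower in 4 of 4 pairs was 1 member, HDAC4, where 15.3% of all genes were. The 4 members with 1 direction throughout compare with 30.2% of all genes.

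**Figure D2:**
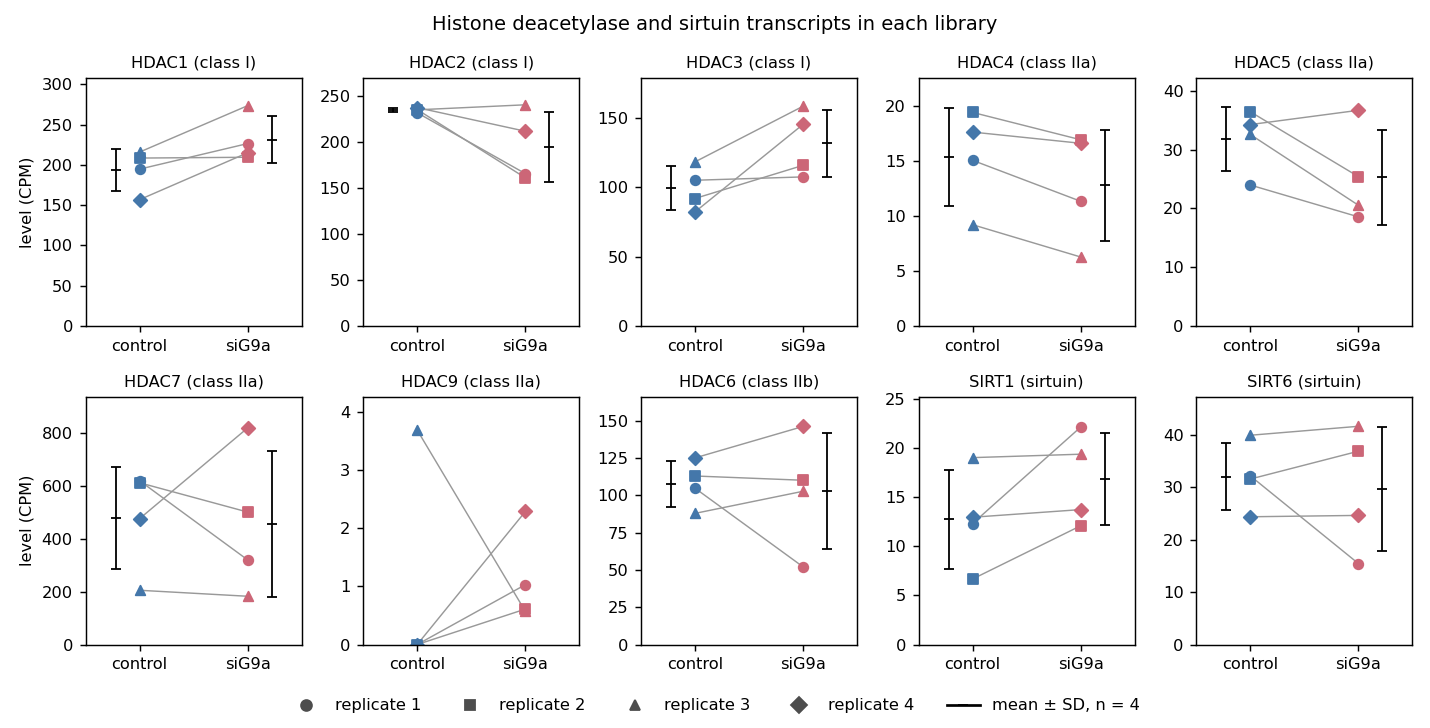
Level in CPM (y axis, from 0) of each of the 10 members in the 4 control (blue) and 4 siG9a (red) libraries, with lines joining libraries of the same replicate number and black bars for the mean and SD (n = 4, not drawn for HDAC9). HDAC1 and HDAC3 slope upwards in 4 of 4 pairs, HDAC7 runs from 182 to 818 CPM with replicate 3 low in both groups, and siG9a replicate 1 is the low point of HDAC6 and SIRT6.

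Within a library, 2 ratios among the class I transcripts did not overlap between the groups. In control replicates 1 to 4 HDAC1 stood at 0.840, 0.886, 0.919 and 0.661 times HDAC2. In siG9a the same ratio was 1.37, 1.30, 1.14 and 1.02. HDAC2 was thus above HDAC1 in 4 of 4 control libraries, and HDAC1 above HDAC2 in 4 of 4 siG9a libraries. In siG9a replicate 4 this order rested on 375 reads of HDAC1 and 369 of HDAC2. The Wilson intervals of these genes, for counting error only, overlapped in control replicates 1 to 3 and siG9a replicates 3 and 4. They did not overlap in control replicate 4 or siG9a replicates 1 and 2. The means of the ratio of HDAC1 to HDAC2 were 0.827 ± 0.115 and 1.21 ± 0.159 (SD, n = 4 each). The ratio of HDAC3 to HDAC2 was 0.453, 0.390, 0.503 and 0.346 in control and 0.648, 0.718, 0.658 and 0.686 in siG9a, again without overlap. The means were 0.423 ± 0.0690 and 0.677 ± 0.0314 (SD, n = 4 each). Control replicate 3 had the highest ratio of the control group in both cases, and siG9a replicate 3 lay between the other siG9a libraries.

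These ratios were examined with the values known and carry no test. Of the 36 ratios among the 9 members other than HDAC9, 2 did not overlap (5.56%), and both involve HDAC2. Counted by denominator, 2 of the 8 ratios to HDAC2 did not overlap, 1 of 8 to HDAC1 and 1 of 8 to HDAC3. For all genes tested, the ratio to HDAC2 did not overlap for 9.47%, the ratio to HDAC1 for 7.12% and the ratio to HDAC3 for 9.38%. With 8 ratios to a gene, nothing particular to the members is read from these counts, and the 2 ratios describe these 8 libraries only.

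**Figure D3:**
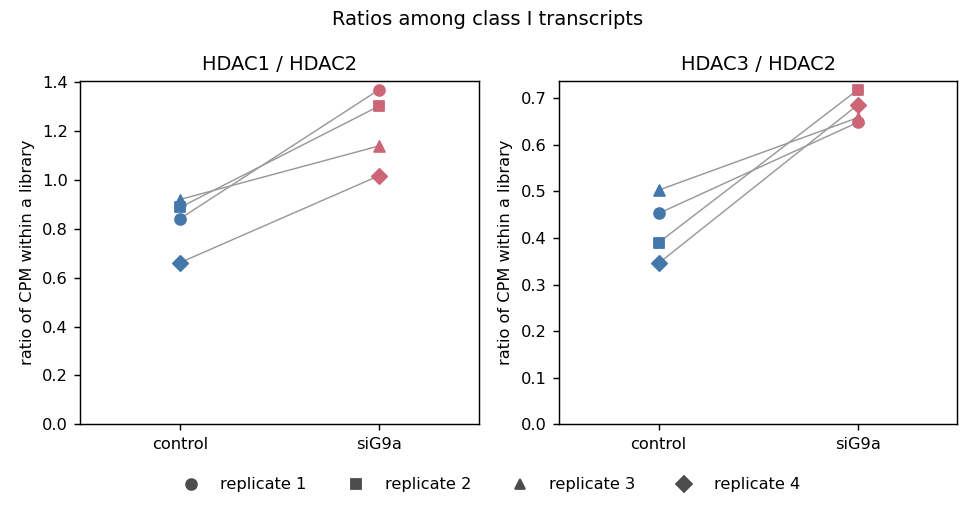
Ratio of HDAC1 to HDAC2 (left) and of HDAC3 to HDAC2 (right) in CPM within each library (y axis, from 0), for control (blue) and siG9a (red), with lines joining libraries of the same replicate number. The control ratios reach 0.919 and 0.503 at most, and the siG9a ratios start at 1.02 and 0.648.

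HDAC7 was the most abundant member and the most variable of those above a few reads. Control replicates 1 to 4 held 618, 611, 205 and 475 CPM (333 to 1005 reads), and the siG9a libraries 319, 499.9, 182 and 818 CPM (319 to 1426 reads). The highest library was 4.49 times the lowest, and the coefficient of variation was 40.5% in control and 60.4% in siG9a where counting alone gives 3.56% and 3.54%. The siG9a libraries were at 51.6%, 81.9%, 88.9% and 172% of the control with the same number, so the pairs did not share a direction. As a log2 difference this was −0.16 (SE 0.45 unblocked, 0.18 blocked; limma adjusted p 0.930 and 0.647). Pairs 1 and 4 pulled apart: leaving out pair 1 turned the blocked difference to 0.11 (limma adjusted p 0.796), and leaving out pair 4 took it to −0.47 (limma adjusted p 0.0619). In the unblocked fit the sign also turned without control replicate 1 (0.01), control replicate 2 (0.0033) or siG9a replicate 3 (0.21).

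Replicate 3 held 0.361 of the HDAC7 level of the other libraries in control and 0.334 in siG9a. HDAC7 was the only one of the 10 members at most 0.5 of the others in both groups, as 11.4% of all genes were, and 0 members were at least 2-fold above the others in replicate 3 of both groups, as 6.24% of all genes were. HDAC4 came next, at 0.530 and 0.419. MYOD1 was low and the neurofilament sum high in the same 2 libraries, and their part in the HDAC7 level was not tested. The HDAC7 window in RefSeq (chromosome 12) holds 0 matches to the GC box and 0 to the E-box CANNTG on either strand, the latter present in 68.7% of windows.

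HDAC4 and HDAC5, the class IIa enzymes whose export from the nucleus follows phosphorylation, were far lower than HDAC7. HDAC4 measured 15.1, 19.4, 9.22 and 17.6 CPM in control and 11.3, 16.95, 6.28 and 16.6 CPM in siG9a. All 4 siG9a libraries were below their own control, at 75.3%, 87.2%, 68.1% and 94.2%, on 11 to 34 reads each, and the groups overlapped. The difference on the log2 scale was −0.28 (SE 0.37 unblocked, 0.28 blocked; limma adjusted p 0.815 and 0.569).

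HDAC5 measured 23.99, 36.5, 32.6 and 34.3 CPM in control and 18.6, 25.4, 20.6 and 36.7 CPM in siG9a. It was lower in replicates 1 to 3, at 77.4%, 69.7% and 63.1% of control, and at 107% in replicate 4, which was also the highest library of all 8. HDAC5 had the lowest log2 difference of the members, −0.35 (SE 0.28 unblocked, 0.22 blocked; limma adjusted p 0.659 and 0.339).

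HDAC9 was at the limit of detection. It had 0, 0, 6 and 0 reads in control and 2, 1, 1 and 4 in siG9a, where the floor of 3 reads stands at 1.55 to 2.06 CPM. Only control replicate 3 (3.69 CPM) and siG9a replicate 4 (2.29 CPM) lay above that floor, so no fold is given. Its mean of 1.02 CPM passed the filter by a narrow margin.

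HDAC6, which deacetylates tubulin and HSP90 and binds ubiquitin, measured 105, 113, 87.9 and 125 CPM in control and 52.1, 110.2, 103 and 146 CPM in siG9a. The siG9a library of replicate 1 stood low (95% Wilson interval 42.9 to 63.3 CPM, 101 reads), while the other 3 siG9a libraries lay within or above the control range. The siG9a libraries were at 49.7%, 97.5%, 117% and 117% of control. Together they gave a log2 difference of −0.15 (SE 0.29 unblocked, 0.18 blocked; limma adjusted p 0.892 and 0.677). Leaving out siG9a replicate 1 turned it to 0.15 (limma adjusted p 0.847), so 1 library decided its sign.

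SIRT6, a deacetylase of histone H3 at lysine 9 and lysine 56, was also lowest in siG9a replicate 1. It measured 32.2, 31.6, 39.97 and 24.4 CPM in control and 15.5, 36.9, 41.7 and 24.7 CPM in siG9a. Replicate 1 of siG9a (10.8 to 22.1 CPM, 30 reads) was at 48.01% of its control, and the other 3 pairs lay between 101.1% and 117%. SIRT6 had a log2 difference of −0.18 (SE 0.32 unblocked, 0.23 blocked; limma adjusted p 0.877 and 0.684), and of 0.09 without siG9a replicate 1 (limma adjusted p 0.938). That library also had the highest mitochondrial share of reads, 13.7%, in a group where the share was above control in every pair, and the part of that share in these 2 low values was not tested.

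SIRT1, which deacetylates p53 and PGC-1alpha as well as histones, measured 12.3, 6.68, 19.1 and 12.98 CPM in control. In siG9a it measured 22.2, 12.1, 19.4 and 13.8 CPM, on 11 to 43 reads per library over both groups. The siG9a libraries were at 180%, 181%, 102% and 106% of control, so replicates 1 and 2 carried the difference and replicates 3 and 4 were level. SIRT1 had the highest log2 difference of the members above the detection limit, 0.42 (SE 0.35 unblocked, 0.28 blocked; limma adjusted p 0.686 and 0.376). In the blocked fit the interval ran from a fold of 0.896 to 1.99 in CPM + 1, narrowly within 2-fold.

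QuantSeq reads come from transcript ends and one transcript gives about one tag, so CPM levels of different genes can be set side by side. In control the order of means was HDAC7 (477 ± 193 CPM), HDAC2 (235 ± 2.31), HDAC1 (194 ± 26.3), HDAC6 (108 ± 15.6), HDAC3 (99.2 ± 15.7), SIRT6 (32.05 ± 6.36), HDAC5 (31.8 ± 5.46), HDAC4 (15.3 ± 4.46) and SIRT1 (12.8 ± 5.06; SD, n = 4 each), with HDAC9 last. HDAC1 was above HDAC6, HDAC3 above SIRT6, HDAC5 above HDAC4 and SIRT1 above HDAC9 in 8 of 8 libraries. HDAC7 was above HDAC2 in 6 of 8, the exceptions being the replicate 3 libraries. HDAC2 was above HDAC1 in 4 of 8, the control libraries alone. Other neighbours that could not be ordered were HDAC6 and HDAC3 (3 of 8), SIRT6 and HDAC5 (4 of 8), and HDAC4 and SIRT1 (5 of 8).

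Over all 18 genes of the family (the 10 members with HDAC8, HDAC10, HDAC11, SIRT2, SIRT3, SIRT4, SIRT5 and SIRT7) the control libraries summed to 1474 ± 209 CPM and the siG9a libraries to 1473 ± 302 CPM (SD, n = 4 per group). Class I held 38.1% ± 7.36 of it in control and 41.03% ± 9.83 in siG9a, class IIa 34.7% ± 9.40 and 32.02% ± 12.9, and sirtuins 14.6% ± 3.23 and 16.6% ± 3.62 (SD, n = 4 each). These shares overlapped between the groups. Replicate 3 differed within each group: its class IIa share was 20.8% in control, where the others lay between 37.2% and 40.7%, and 15.7% in siG9a, where the others lay between 29.6% and 46.3%. HDAC7 made up 81.8% to 94.1% of the class IIa sum in every library, so the class IIa sum is close to the HDAC7 level.

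**Figure D4:**
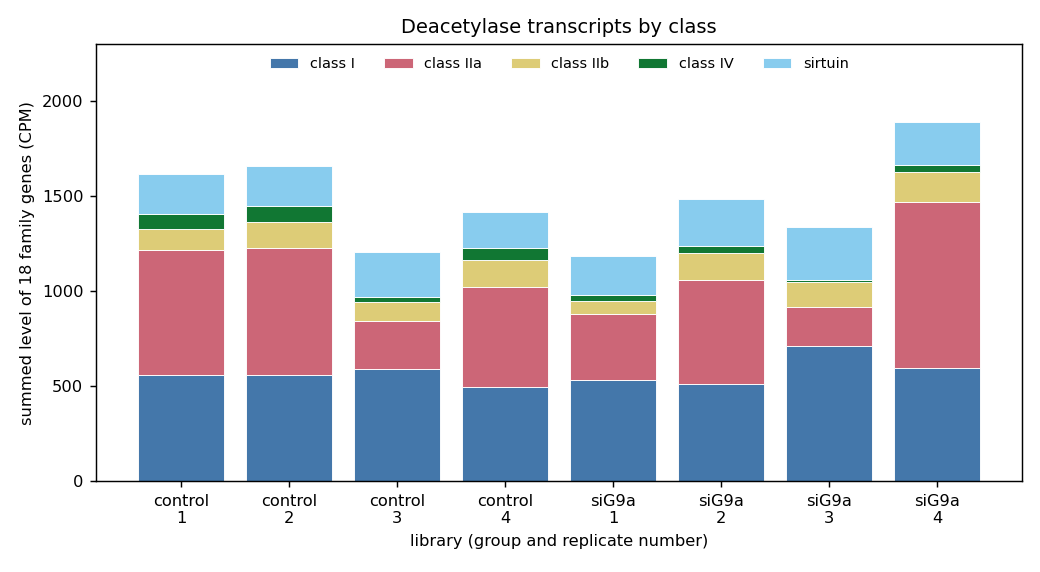
Summed CPM of the 18 family genes (y axis, from 0) in each library (x axis), stacked by class. Class IIa (red) shrinks to 250.3 CPM in control replicate 3 and 209.5 CPM in siG9a replicate 3 and reaches 873 CPM in siG9a replicate 4, while class I (blue) stays between 497 and 709 CPM.

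Outside the 10 members, 2 of the 8 remaining family genes were called in the blocked limma fit, where 11.4% of all genes were, and 0 in the unblocked. HDAC11, the class IV enzyme, measured 79.5, 88.1, 27.1 and 62.8 CPM in control and 30.4, 37.5, 14.3 and 33.8 CPM in siG9a. In the blocked fit it fell by 1.08 on the log2 scale (SE 0.19, limma adjusted p 0.000606 blocked, 0.296 unblocked), lower in 4 of 4 pairs, and was called in each of the 4 blocked fits that left out a pair. SIRT5, a mitochondrial enzyme that removes succinyl and malonyl groups, rose in the blocked fit from 10.8 ± 5.21 to 20.3 ± 5.94 CPM (SD, n = 4 each; limma adjusted p 0.0301 blocked, 0.335 unblocked). It lost its call in 3 of 4 such fits and had an adjusted p of 0.115 in DESeq2 with the block. The siG9a and control values of both HDAC11 and SIRT5 overlapped. The other 6 were not called in either fit. HDAC8, a class I enzyme, measured 24.1 ± 2.42 CPM in control and 30.4 ± 5.55 CPM in siG9a, and SIRT3, a mitochondrial deacetylase, 18.4 ± 4.87 and 18.9 ± 3.10 CPM (SD, n = 4 each). SIRT4 had at most 9 reads in a library. Mean levels in control and siG9a were 14.04 and 22.1 CPM for HDAC10, 35.5 and 30.5 CPM for SIRT2 and 100.1 and 119.8 CPM for SIRT7, but these 3 overlap exons of MAPK12, NFKBIB and MAFG, at means of 67.98, 80.6 and 69.9 CPM, and reads may be shared. SIRT3 likewise overlaps exons of PSMD13 on the other strand, at a mean of 111 CPM, so its values are uncertain. Whether HDAC11 or SIRT5 differ from the members in their response was not tested. Muscle markers called lower and a higher mitochondrial share were also seen in siG9a. Their part in the calls given here and for the partner genes below was not tested.

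Partner genes were taken from lists of complexes and regulators, and their counts are set beside the 11.4% of all genes called with the block. In the list of SIN3 subunits 1 of 14 tested was called with the block (SAP30, lower), of NuRD 1 of 11 (MBD3, lower), of CoREST 0 of 9, of NCoR and SMRT 0 of 5 and of the MiDAC complex 1 of 3 (ELMSAN1, lower). For CoREST and for NCoR and SMRT, 2 and 1 genes had an unadjusted p under 0.05 with the block in limma, where 25.5% of all genes had. Both edgeR and DESeq2 with the block called 0 in these lists. Median log2 differences were 0.17 for SIN3, −0.07 for NuRD, 0.44 for CoREST, −0.16 for NCoR and SMRT and −0.02 for MiDAC, beside 0.01 for all genes tested. MBD3, the NuRD subunit with a methyl-CpG binding fold, fell with the block from 262 ± 62.1 to 151 ± 72.1 CPM (SD, n = 4 each; limma adjusted p 0.00111 blocked, 0.363 unblocked). Its groups overlapped, and siG9a replicate 1 was the lowest library at 45.9 CPM. Without that library the unblocked log2 difference was −0.46, against −0.96 with it. SAP30 and ELMSAN1 had log2 differences of −0.94 and −0.62 (limma adjusted p 0.0373 and 0.0192 blocked, 0.461 and 0.361 unblocked), and lost their calls in 3 and 2 of the 4 blocked fits that left out a pair. The siG9a and control values of both also overlapped.

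Regulators of class IIa enzymes were counted next. Of 19 kinases and 14-3-3 proteins, which phosphorylate these enzymes and hold them in the cytoplasm, 3 were called with the block, 1 higher and 2 lower (median log2 difference 0.03). SIK2, a salt-inducible kinase that phosphorylates class IIa enzymes, measured 4.11, 7.90, 7.99 and 8.83 CPM in control and 22.2, 15.7, 19.98 and 20.6 CPM in siG9a, without overlap. It rose with the block by 1.36 ± 0.30 (SE) on the log2 scale (limma adjusted p 0.00403 blocked, 0.126 unblocked). The 14-3-3 gene YWHAE fell with the block from 279 ± 95.7 to 137 ± 96.3 CPM (SD, n = 4 each; limma adjusted p 0.000136 blocked, 0.277 unblocked). CAMK2D had a log2 difference of −0.92 (limma adjusted p 0.0177 blocked, 0.365 unblocked) and lost its call in 3 of 4 fits without a pair. Of the 3 tested MEF2 genes 0 were called, and edgeR or DESeq2 with the block also called 0. Limma with the block gave 2 of them an unadjusted p under 0.05, as it did 25.5% of all genes.

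Among 11 tested histone acetyltransferases, the enzymes that add what deacetylases remove, 2 were called with the block, both higher (median log2 difference 0.04). NCOA3 measured 50.04, 36.5, 30.1 and 60.8 CPM in control and 98.5, 84.7, 63.9 and 90.04 CPM in siG9a, without overlap, and rose with the block by 0.94 ± 0.18 (SE) on the log2 scale (limma adjusted p 0.000920 blocked, 0.183 unblocked). KAT2A, the GCN5 acetyltransferase, measured 40.4 to 49.2 CPM in control and 53.9 to 99.6 CPM in siG9a, also without overlap, (limma adjusted p 0.0180 blocked, 0.258 unblocked), and lost its call in 3 of 4 fits without a pair. Of 8 tested genes of NAD supply and sirtuin regulation, 2 were called with the block, both lower (median log2 difference −0.02). QPRT, an enzyme on the route from tryptophan to NAD, fell with the block from 109.7 ± 40.6 to 62.1 ± 22.2 CPM, and NNMT, which methylates nicotinamide, from 43.7 ± 25.6 to 15.5 ± 9.21 CPM (SD, n = 4 each; limma adjusted p 0.00261 and 0.00147 blocked, 0.398 and 0.385 unblocked). Both genes overlapped between the groups.

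Overlapping annotation limits some values. In GENCODE 29 the exons of HDAC2, HDAC3, HDAC4 and HDAC7 overlap genes on the other strand, and the use of strand in counting is not given in the sources used here. The largest of these neighbours in the deposited table were SLC48A1 at HDAC7 (8.33 CPM, mean of 8 libraries) and HDAC2-AS2 at HDAC2 (5.32 CPM), against 466 CPM for HDAC7 and 215 CPM for HDAC2.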

How the data were processed

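RNA from Rh41 cells was extracted with TRIzol and sequenced as QuantSeq 3′ mRNA libraries in single-end mode, per the labels' protocols. The submitters' processing notes name FastQC 0.11.8, Trim Galore, STAR 2.5.0a, HTSeq 0.8.0 and edgeR 3.28, and the builds GRCh38 and hg19, with no role given. The deposited values are CPM relative to the reads assigned to genes in each library, as the values show; other steps the authors took are not given in the sources used here. All non-zero values (100%) were whole multiples of 1 read within 0.01 CPM, so reads were recovered.

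Differences were tested on the scale of log2(CPM + 1) by limma 3.58.1 (R 4.3.3; eBayes with trend), keeping genes whose mean reached 1 CPM, with Benjamini-Hochberg adjustment over all of them. The pseudocount of 1 understates changes of low genes. Same-numbered libraries deviated together (correlations across genes 0.104 to 0.673, all 4 over 0.1, highest for numbers 3 and 1; 6 of 8 libraries correlated best with their own number, and control 2 with siG9a 4 reached 0.144), so the replicate numbers in the titles, whose meaning the labels do not give, were also used as a block. Alternatives included edgeR 4.0.16 and DESeq2 1.42.0 on the recovered reads, and scripts were tested on simulated data. Intervals of log2 differences and folds are 95% intervals from the limma fits, and these folds are of CPM + 1. Intervals of the CPM of a single library are 95% Wilson intervals and cover counting error only. The members and gene lists were chosen with earlier results of these data known. Named genes are all members, the remaining family genes, EHMT2, and in each list of partners and regulators the called genes, at most 4. Some cell type markers are named as well.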

Additional observations from a re-analysis of the deposited data

Results flagged for a closer look

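The extreme value among 4 libraries was compared with the other 3 by its gap over the whole range, for the 18 family genes, EHMT2 and sums and ratios over classes. Of 68 groups 5 lay beyond Dixon's 95% critical value, where chance (about 1 in 20 groups) gives about 3.40, and the measures share genes. HDAC9 was high in control replicate 3, at 3.69 CPM (6 reads) where the other control libraries had 0. The class I share of the family sum was 49.2% and the sirtuin share 19.4% in the same library, while replicates 1, 2 and 4 of control had 33.8% to 35.1% and 12.6% to 13.4%. SIRT3, a mitochondrial deacetylase, had 14.3 CPM in siG9a replicate 3 and 20.1 to 20.6 CPM in the rest of that group, with exons that overlap the more abundant PSMD13. SIRT4 had 4.64 CPM (9 reads) in siG9a replicate 1 and at most 1.15 CPM in the rest.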

How the results depend on the processing

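None of the 27 alternatives called a member: 261 of 269 member values kept direction and side of the threshold, and 8, all of HDAC6, HDAC7 or SIRT6, turned sign. Unblocked limma called 0 of all genes with a pseudocount of 0.1 or 5, a 5 CPM filter, median-ratio scaling, quantile normalization or no trend. Unblocked edgeR also called 0, so the absence of a member call under these settings says nothing particular to the members. Without 1 library and with no block the log2 difference ran from −0.35 to 0.15 for HDAC6, from −0.52 to 0.21 for HDAC7 (0.01 and 0.0033 without control replicates 1 and 2), from −0.37 to 0.088 for SIRT6, from −0.13 to 0.18 for SIRT3 and from −0.059 to 0.66 for SIRT4. With the replicate block and without pair 1 it was 0.14 for HDAC6, 0.11 for HDAC7, 0.10 for SIRT6, 0.034 for SIRT2 and −0.35 for SIRT4. SIRT3 was at −0.0063 without replicate 3 in both groups, in the fits with and without the replicate block. Over the whole table the number of genes called was 0 by limma unblocked, 1717 with the replicate block, 18 with no filter, 1711 by edgeR with the block, 291 by DESeq2 and 969 by DESeq2 with the block. With the block it was 1693 under median-ratio scaling and 1688 under quantile normalization, both chosen after seeing the data. Without 1 library and with no block it ran from 0 to 300 (300 without control replicate 3), and it was 413 without both replicate 3 libraries. With the block it was 951, 668, 1078 and 1393 without pair 1, 2, 3 or 4. The causes were not tested. The block changed no call of a member. No scaling moved the median of all genes by over 0.1. HDAC4 and SIRT1 rest on 11 to 43 reads a library and their unblocked intervals reach beyond 2-fold. The unblocked interval of HDAC7, on 319 to 1426 reads, also does, from a fold of 0.459 to 1.75. HDAC9 is too low to compare.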
